A study of Mus musculus with 6 samples.

Results

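The mitochondrially encoded genes are the rows of the deposited expression table whose gene name begins with mt-. There were 37 of them among 35148 rows, comprising 13 mRNAs, 2 ribosomal RNAs (rRNAs) and 22 transfer RNAs (tRNAs), and they were all of the rows placed on the mitochondrial chromosome. Start, end and strand were identical to the GENCODE M21 annotation of GRCm38 for 37 of 37, and all 37 passed the filter on low counts. The libraries were poly(A)-selected RNA of the hypothalamic paraventricular nucleus (PVH), a cluster of neurosecretory and pre-autonomic neurons. All libraries came from mice homozygous for a loxP-flanked Ruvbl2 allele (Ruvbl2fl/fl), injected in the PVH with adeno-associated virus of serotype 2 and sampled 8 weeks later. In 3 libraries the virus delivered GFP and Cre recombinase (AAV2-Cre-GFP), and in 3 it delivered GFP alone (AAV2-GFP). The sources used here do not give the promoter of the virus, the age of the animals or whether each library is a separate animal, and p-values thus cover only the spread among libraries, which may be technical.

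The mitochondrial genome is a small circle that is transcribed from both strands as long precursors. Most genes lie on the strand that the reference lists as plus and are called heavy-strand genes here, and mt-Nd6 and 8 tRNAs lie on the minus strand and are called light-strand genes. The tRNAs stand between the mRNAs and rRNAs like punctuation, and their excision by RNase P and ELAC2 releases the neighbouring transcripts. The mRNAs encode core subunits of respiratory complexes I, III and IV and of ATP synthase. Most of the transcripts that carry them receive a short poly(A) tail, which for some also completes the stop codon.

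The ends of the coding genes are shown because poly(A) selection acts on tails at transcript ends. A gene end need not be a transcript end, as where neighbouring genes share a transcript. Transcript ends and tails were not tested here. By their annotated ends, mt-Co3, mt-Nd4 and mt-Cytb encode 1 base of the stop codon, and the other 10 mRNA genes encode all 3. The last 2 bases of mt-Nd1 are also the first 2 of mt-Ti, on the same strand. The same holds for mt-Nd2 and mt-Tw. Whether the released transcripts of mt-Nd1 and mt-Nd2 keep these bases was not tested. In the last 30 bases of 5 mRNAs, read 5′ to 3′ from the GENCODE M21 transcripts (GRCm38), capitals mark the encoded stop letters.
mt-Co3 (MT:9361-9390, plus strand): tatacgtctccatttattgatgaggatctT
mt-Nd4 (MT:11515-11544, plus strand): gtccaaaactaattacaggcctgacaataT
mt-Cytb (MT:15259-15288, plus strand): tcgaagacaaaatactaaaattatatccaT
mt-Nd3 (MT:9777-9806, plus strand): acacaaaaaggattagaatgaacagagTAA
mt-Nd6 (MT:13552-13581, minus strand): tttattattatcgagattactcgagatTAA

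Neighbouring genes share bases, so a fragment can fall in more than 1 gene model. The largest shared stretch was the 43 bases common to mt-Atp8 and mt-Atp6, which are read in different frames of 1 transcript. mt-Nd4l and mt-Nd4 shared 7 bases. mt-Nd5 and mt-Nd6 shared 14 bases on opposite strands, as mt-Co1 and mt-Ts1 shared 3. The libraries were prepared in a stranded way, per the labels' protocols, but whether strand was used in counting is not given in the sources used here. Reads of a light-strand gene and of its antisense partner therefore cannot be told apart. Capitals mark the shared bases in these windows of the plus strand.
mt-Atp8 and mt-Atp6 (shared MT:7927-7969): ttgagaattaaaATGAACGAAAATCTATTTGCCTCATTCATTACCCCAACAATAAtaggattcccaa
mt-Nd4l and mt-Nd4 (shared MT:10167-10173): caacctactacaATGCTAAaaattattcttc
mt-Nd5 and mt-Nd6 (shared MT:13552-13565): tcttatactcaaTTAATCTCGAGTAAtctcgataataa
mt-Co1 and mt-Ts1 (shared MT:6870-6872): gtaaaagtaaaaTAAgaaaggaaggaa

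Ruvbl2 encodes an ATPase of chromatin remodelling complexes and is the gene that Cre should delete, but no fall in its level was detected. It stood at 9.38 ± 0.240 FPKM in the libraries labelled AAV2-Cre-GFP and 8.66 ± 1.27 FPKM in those labelled AAV2-GFP (SD, n = 3 each), with a log2 difference of 0.077 ± 0.11 (SE; edgeR adjusted p = 0.773). The libraries are therefore called Cre-labelled and GFP-labelled. Total counts were between 41890769 and 54702785 per library. Transcripts of other organs were present in 3 of them. The sum of 12 kidney genes was 517 and 558 CPM (counts scaled to the library total) in Cre-labelled libraries 2 and 3, and 49.4 CPM or less in each other library. The sum of 12 testis genes was 869 CPM in GFP-labelled library 1, and 170.3 CPM or less in each other one. The sum of 12 skeletal muscle genes was 267 CPM in Cre-labelled library 3 and 28.8 CPM in Cre-labelled library 2, and 12.6 CPM or less in each other library. Leaving out these 3 libraries leaves Cre-labelled library 1 against GFP-labelled libraries 2 and 3. CT010467 (ENSMUSG00000106106), a gene model of nuclear ribosomal RNA, stood at 17633, 13492 and 7301 CPM in Cre-labelled libraries 1 to 3, against 2219, 2201 and 2072 CPM in GFP-labelled libraries 1 to 3.

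Mitochondrial transcripts together made up 49157, 57422 and 52712.5 CPM of Cre-labelled libraries 1 to 3, against 49085, 44729 and 45459 CPM of GFP-labelled libraries 1 to 3. The lowest Cre-labelled library lay just above the highest GFP-labelled one, and the ratio of the means was 1.14. The mRNAs made up most of this, with 43891, 52979.8 and 48916.5 CPM across the Cre-labelled libraries and 45314, 41548 and 42028 CPM in the GFP-labelled ones. Here the groups overlapped, since Cre-labelled library 1 was below GFP-labelled library 1. The 2 rRNAs summed to 4995, 4157 and 3548 CPM across the Cre-labelled libraries and to 3515, 2952 and 3191 CPM in the GFP-labelled ones, and the 22 tRNAs to 271, 285 and 248 CPM across the Cre-labelled libraries, against 256, 229 and 240.0 CPM in the GFP-labelled ones. The rRNA sums did not overlap, narrowly, and the tRNA sums did. The ratio of the group means was 1.13 for mRNAs, 1.32 for rRNAs and 1.11 for tRNAs. With TMM-scaled totals, which adjust for composition, these ratios were 1.10, 1.27 and 1.07, and the groups overlapped for all 37 genes together and for the rRNAs too. These sums carry no test. In tissue RNA such as this, fewer cells of a type and less RNA per cell cannot be told apart.

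**Figure D1:**
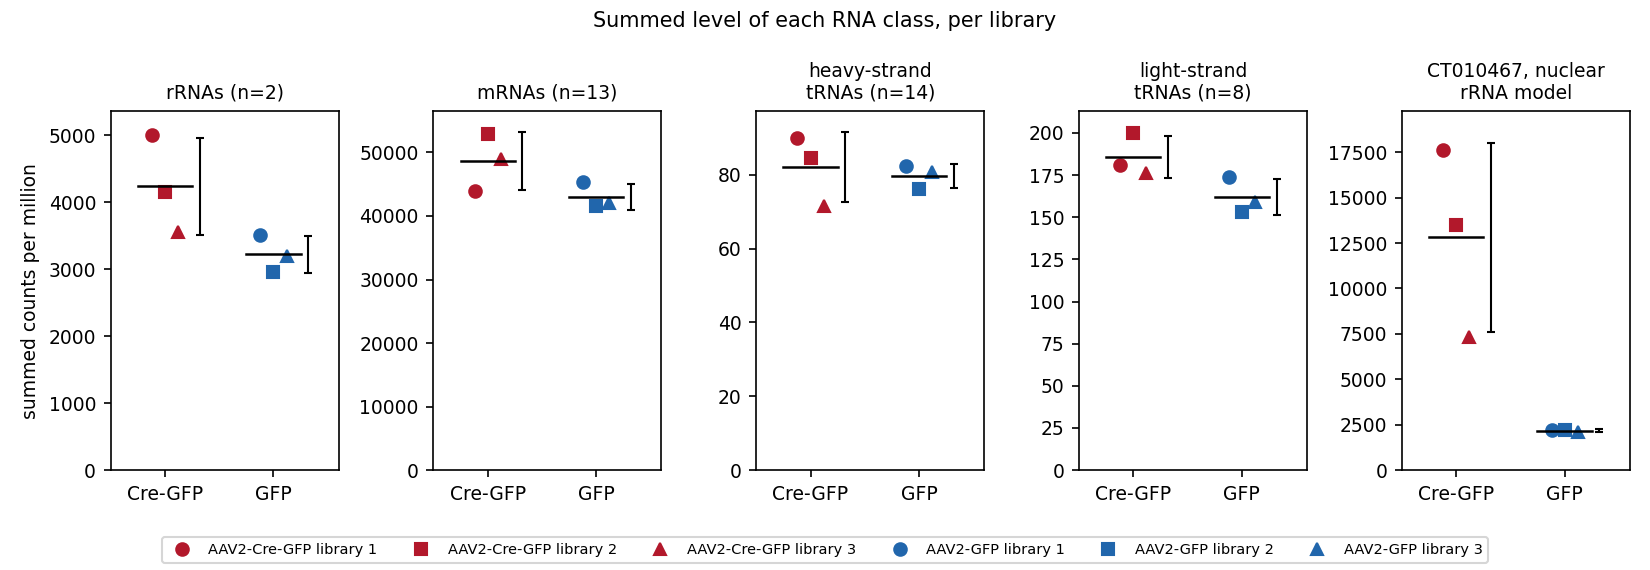
Summed CPM of the rRNAs, mRNAs, heavy-strand tRNAs and light-strand tRNAs in each library, with CT010467 in the rightmost panel. Points are libraries, lines are group means and bars are 1 SD (n = 3). The rRNAs and CT010467 were highest in Cre-labelled library 1 and fell in order to library 3, while the mRNAs and light-strand tRNAs were highest in Cre-labelled library 2.

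By the quasi-likelihood test of edgeR, 0 of the 37 genes reached an adjusted p under 0.05, where 2 of all 20865 genes did (0.00959%). Their edgeR adjusted p ran between 0.155 and 0.998. Of the 37, 7 had an unadjusted p under 0.05, all higher in the Cre-labelled libraries: mt-Nd3, mt-Co3, mt-Rnr2, mt-Ty, mt-Cytb, mt-Rnr1 and mt-Co1. That is 18.9% of the 37, against 17.2% of all genes tested (8.11% higher and 9.11% lower). DESeq2 called 4 of the 37, all higher, namely mt-Rnr2, mt-Co3, mt-Nd3 and mt-Cytb. This is 10.8%, against 8.03% of the 16455 genes with a DESeq2 adjusted p (3.12% higher). mt-Tv was among the genes without one. In FPKM the groups did not overlap for 9 of the 37 (24.3%), all higher, where 14.1% of all genes were higher without overlap and 8.8% were lower. With TMM-scaled CPM there were 7 (18.9%), all higher, against 11.1% of all genes higher and 11.7% lower. The median log2 difference was 0.056 over the 37 genes, 28 of which were above 0 (22 to 32 over the alternatives). Over all genes tested it was -0.0058, with 49% above 0.

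**Figure D2:**
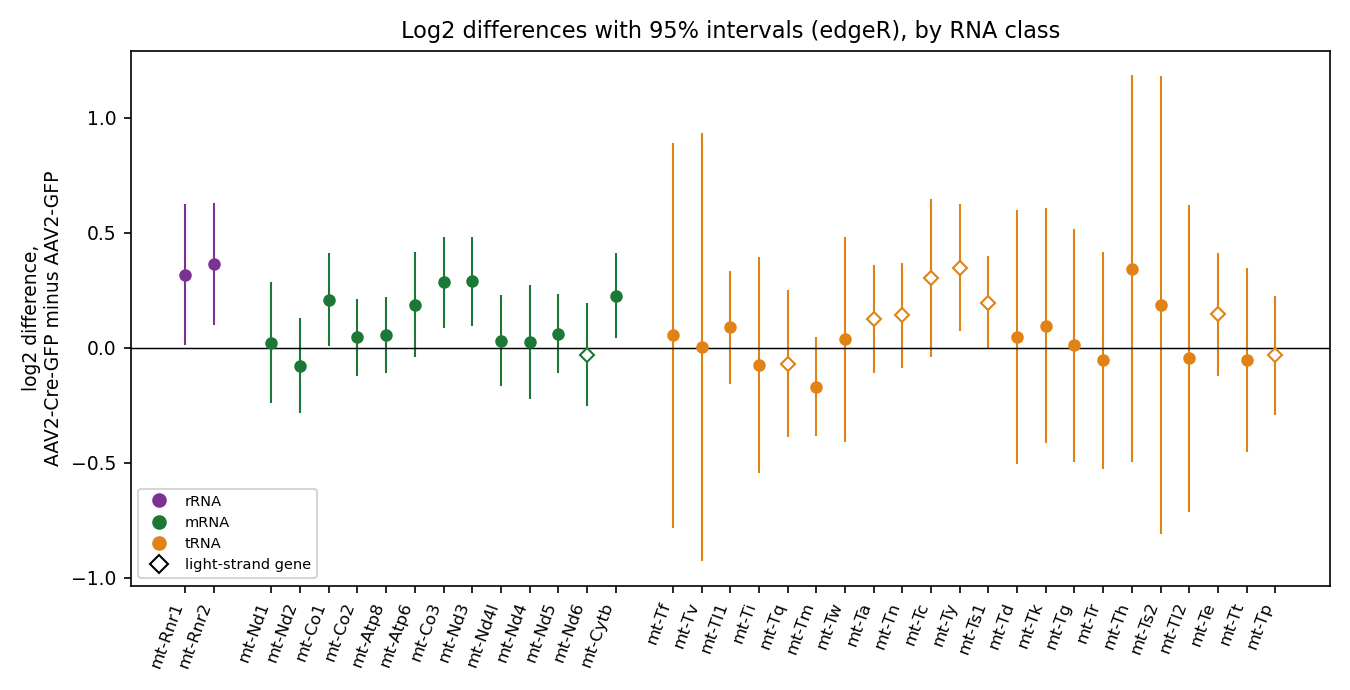
Log2 difference of each mitochondrially encoded gene, libraries labelled AAV2-Cre-GFP minus those labelled AAV2-GFP, with its 95% interval from edgeR, by RNA class and in genome order within each class. Open diamonds are light-strand genes. The widest intervals belong to tRNAs with few counts, such as mt-Ts2 and mt-Tv, and none of the genes passed the adjusted threshold.

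The ribosomal RNAs had the largest class median, a log2 difference of 0.34. mt-Rnr2, the large-subunit rRNA, stood at 1722, 1391 and 1230.4 FPKM in Cre-labelled libraries 1 to 3, against 1160.2, 1015 and 1108 FPKM in GFP-labelled libraries 1 to 3. The lowest Cre-labelled value was above the highest GFP-labelled one. Its log2 difference was 0.36 ± 0.11 (SE), not past the threshold in edgeR (adjusted p = 0.177) but past it in DESeq2 (adjusted p = 0.00546). mt-Rnr1, the small-subunit rRNA, stood at 1669.6, 1438 and 1161 FPKM in the Cre-labelled libraries, against 1258, 1012 and 1062 FPKM in the GFP-labelled ones. Its groups overlapped, because Cre-labelled library 3 was below GFP-labelled library 1, and its log2 difference was 0.32 ± 0.13 (SE; edgeR adjusted p = 0.275). Both genes are separated only by mt-Tv and had nearly equal levels per length: the ratio of mt-Rnr2 to mt-Rnr1 in FPKM was 1.03, 0.967 and 1.06 in the Cre-labelled libraries and 0.922, 1.00 and 1.04 in the GFP-labelled ones.

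The rRNAs were highest in Cre-labelled library 1. There were 11.4 rRNA counts per 100 mRNA counts in that library, 7.85 and 7.25 in Cre-labelled libraries 2 and 3, and 7.76, 7.10 and 7.59 in the GFP-labelled ones, so only library 1 stood apart. Without Cre-labelled library 1 the log2 differences were 0.24 for mt-Rnr2 and 0.21 for mt-Rnr1, and without Cre-labelled library 3 they were 0.48 and 0.46. With Cre-labelled library 1 alone against GFP-labelled libraries 2 and 3 they were 0.64 and 0.63. That setting has 1 library in the Cre-labelled group, so no p-value is given for it. With 1 library left out the edgeR adjusted p ran between 0.206 and 0.402 for mt-Rnr2 and between 0.211 and 0.526 for mt-Rnr1. Over all alternatives the highest adjusted p was 0.551 for mt-Rnr2 and 0.641 for mt-Rnr1. In Cre-labelled libraries 1 to 3 both rRNAs fell in the same order as CT010467. Rn7sk, a nuclear small RNA that has no poly(A) tail, stood at 9.95, 6.96 and 3.24 CPM in these libraries, against 2.31, 1.5 and 2.00 CPM in the GFP-labelled ones. Whether the nuclear rRNA and Rn7sk levels have a part in the rRNA values was not tested.

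Among the mRNAs, 11 of 13 had a log2 difference above 0, with a median of 0.056. The median turned to -0.043 without the 3 libraries that hold transcripts of other organs. Complex IV, cytochrome c oxidase, passes electrons to oxygen, and its 3 mitochondrial mRNAs summed to 19811, 23879 and 21904 CPM across the Cre-labelled libraries, against 19222, 18039.7 and 18272 CPM in the GFP-labelled ones. The groups did not overlap, though they did on TMM-scaled totals, and the ratio of the means was 1.18. mt-Co1, the catalytic subunit, stood at 8011, 9716 and 8803 FPKM in the Cre-labelled libraries, against 7804, 7347 and 7226 FPKM in the GFP-labelled ones. Its groups did not overlap in FPKM but did in TMM-scaled CPM, and its log2 difference was 0.21 ± 0.087 (SE; edgeR adjusted p = 0.276). mt-Co3, a core subunit without redox centres, stood at 2848, 3421 and 3226 FPKM in the Cre-labelled libraries, against 2443, 2507 and 2654 FPKM in the GFP-labelled ones. It did not overlap on either scale. Its log2 difference was 0.28 ± 0.085 (SE; edgeR adjusted p = 0.167, DESeq2 adjusted p = 0.00575). mt-Co2, which carries the copper centre that accepts electrons from cytochrome c, stood at 3685, 4142 and 3988 FPKM in the Cre-labelled libraries, against 3855, 3509.7 and 3801 FPKM in the GFP-labelled ones. It overlapped, with a log2 difference of 0.045 and a 95% interval of -0.12 to 0.21, and was at -0.043 without the 3 libraries.

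The single mitochondrial subunit of complex III is cytochrome b. Its mRNA, mt-Cytb, stood at 4259.9, 5067 and 4848 FPKM in the Cre-labelled libraries, against 3925, 3924 and 3962 FPKM in the GFP-labelled ones. All Cre-labelled libraries lay above the narrow range of the GFP-labelled ones. The log2 difference was 0.23 ± 0.080 (SE; edgeR adjusted p = 0.213, DESeq2 adjusted p = 0.0234). Over all alternatives the adjusted p of mt-Cytb ran between 0.0234 and 0.80, and that of mt-Co3 between 0.00575 and 0.672. Both differences were smaller when the libraries with transcripts of other organs were left out, at 0.058 for mt-Cytb and 0.088 for mt-Co3, and mt-Co1 was then at 0.083. Cre-labelled library 1, the only one left of its group in that setting, had the lowest mt-Cytb, mt-Co1 and mt-Co3 of the Cre-labelled libraries.

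Complex I, NADH dehydrogenase, takes 7 of the 13 mRNAs, and only mt-Nd3 among them had groups that did not overlap. mt-Nd3 encodes a small subunit with a loop at the junction of the membrane and peripheral arms. It stood at 607, 669 and 566 FPKM in the Cre-labelled libraries, against 479, 464 and 527 FPKM in the GFP-labelled ones. Its log2 difference was 0.29 ± 0.083 (SE; edgeR adjusted p = 0.155, DESeq2 adjusted p = 0.0120), and it was 0.24 without the 3 libraries that hold transcripts of other organs. Over all alternatives its adjusted p ran between 0.0120 and 0.394. mt-Nd1, which forms part of the ubiquinone site, stood at 2874, 3622 and 3101 FPKM in the Cre-labelled libraries, against 3478, 2876 and 2861 FPKM in the GFP-labelled ones. mt-Nd2, a proton-pumping membrane subunit, stood at 2167, 2565 and 2426 FPKM in the Cre-labelled libraries, against 2669, 2337 and 2361 FPKM in the GFP-labelled ones. Both genes overlapped, with Cre-labelled library 1 low and GFP-labelled library 1 high, and had log2 differences of 0.023 and -0.077 (edgeR adjusted p = 0.944 and 0.708). Without the 3 libraries they were at -0.052 and -0.17.

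The pumping subunits mt-Nd4 and mt-Nd5 and the small subunit mt-Nd4l likewise overlapped, with log2 differences of 0.025, 0.062 and 0.031. Their 95% intervals were -0.22 to 0.27, -0.11 to 0.23 and -0.17 to 0.23. Without the 3 libraries mt-Nd4 was at -0.081, mt-Nd5 at -0.058 and mt-Nd4l at -0.18. mt-Nd4 stood at 2032, 2506 and 2366 FPKM in the Cre-labelled libraries and at 2481, 2118 and 2022 FPKM in the GFP-labelled ones. mt-Nd6 is the only light-strand mRNA. It stood at 1269, 1479.6 and 1363 FPKM in the Cre-labelled libraries, against 1541, 1267 and 1285 FPKM in the GFP-labelled ones. The highest value was in GFP-labelled library 1, and the log2 difference was -0.030 ± 0.096 (SE; edgeR adjusted p = 0.912). The complex I mRNAs summed to 14637, 17692 and 16419 CPM across the Cre-labelled libraries and to 16967, 14801 and 14934 CPM in the GFP-labelled ones. These sums overlapped, with a ratio of means of 1.04.

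ATP synthase holds the last pair of mRNAs. mt-Atp6, the subunit of the proton channel, stood at 3179, 4022 and 3549 FPKM in the Cre-labelled libraries, against 3276, 2985 and 2951 FPKM in the GFP-labelled ones. mt-Atp8, a small stator subunit, stood at 5523, 6236 and 5676 FPKM in the Cre-labelled libraries, against 5699, 5217 and 5433 FPKM in the GFP-labelled ones. Both overlapped because Cre-labelled library 1 was below GFP-labelled library 1. Their log2 differences were 0.19 ± 0.098 and 0.056 ± 0.071 (SE; edgeR adjusted p = 0.381 and 0.739), and without the 3 libraries they were at 0.045 and -0.0017.

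**Figure D3:**
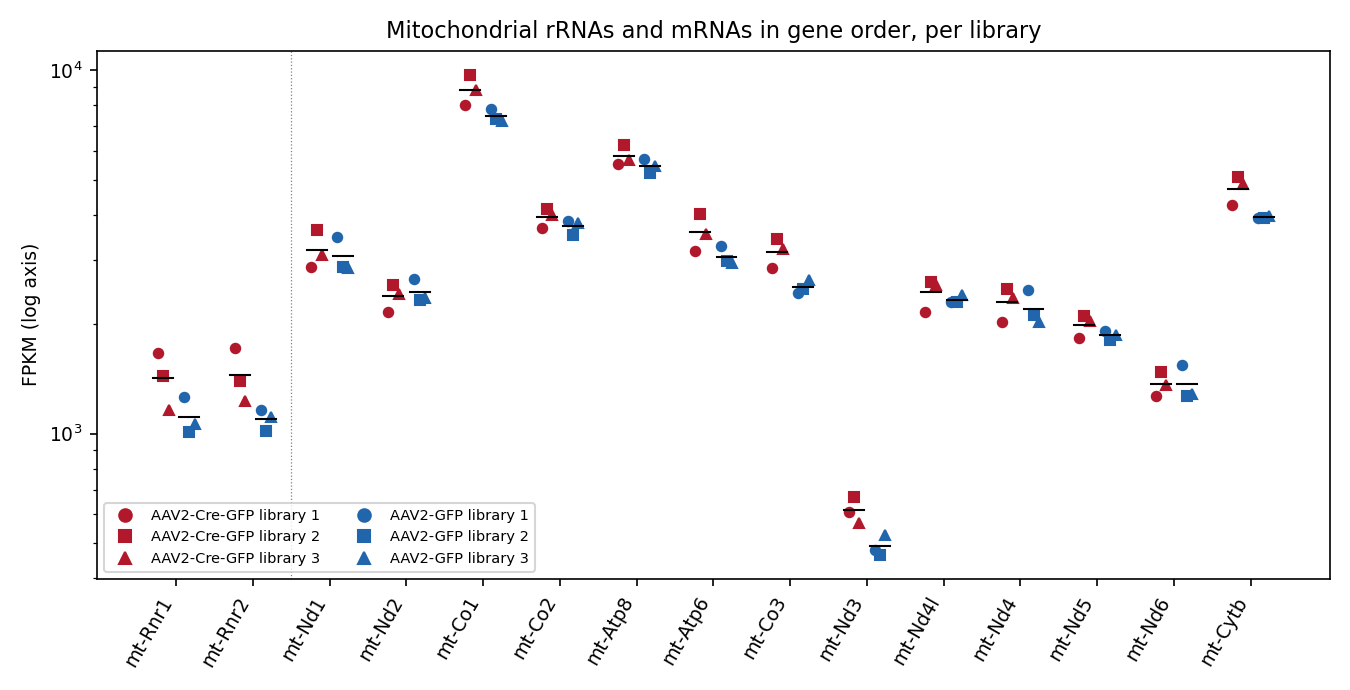
FPKM of the rRNAs and mRNAs in genome order, on a log axis, in each library, with black lines at group means (n = 3). All 13 mRNAs were highest in library 2 among the Cre-labelled libraries, and both rRNAs were highest in library 1.

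Libraries differed in how the mRNAs stood to each other. The ratio of mt-Cytb to mt-Nd1 in FPKM was 1.48, 1.40 and 1.56 in the Cre-labelled libraries, against 1.13, 1.36 and 1.38 in the GFP-labelled ones. The ratio of mt-Co1 to mt-Nd1 was 2.79, 2.68 and 2.84 in the Cre-labelled libraries, against 2.24, 2.55 and 2.53 in the GFP-labelled ones. In both ratios the groups did not overlap, with the Cre-labelled libraries higher, and GFP-labelled library 1 was the lowest. The ratio of mt-Cytb, a heavy-strand mRNA, to mt-Nd6, the light-strand one, was 3.36, 3.42 and 3.56 in the Cre-labelled libraries, against 2.55, 3.10 and 3.08 in the GFP-labelled ones. These pairs were chosen after the values were seen and carry no test.

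The levels of the mRNAs spanned a wide range in FPKM, a unit scaled to gene length, although the precursors are shared. Over the 6 libraries the mean ran between 8151 FPKM for mt-Co1 and 552 FPKM for mt-Nd3, a ratio of 14.8. In descending order the mRNAs were mt-Co1, mt-Atp8 at 5631 FPKM, mt-Cytb at 4331 FPKM, mt-Co2, mt-Atp6, mt-Nd1, mt-Co3, mt-Nd2, mt-Nd4l, mt-Nd4, mt-Nd5, mt-Nd6 at 1368 FPKM and mt-Nd3. Each of the 4 highest exceeded the next in 6 of 6 libraries, as did each of mt-Nd4, mt-Nd5 and mt-Nd6. mt-Nd2 exceeded mt-Nd4l in 3 of 6, so their order was not resolved. mt-Atp6, mt-Nd1, mt-Co3 and mt-Nd4l each exceeded the next in 5 of 6. Both rRNAs averaged less than 12 of the 13 mRNAs, at 1271 FPKM for mt-Rnr2 and 1267 FPKM for mt-Rnr1, in libraries selected for poly(A).

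This order is uncertain for genes with copies in the nuclear genome. By the shared 31-base words of the GENCODE M21 transcripts, 11 gene models outside the mitochondrial chromosome had at least 20% of their words in common with it. Of these, 7 lie side by side on the minus strand of chromosome 1 between 24611535 and 24616197 (GRCm38), and they cover mt-Co1, mt-Co2, mt-Atp6, mt-Co3, mt-Nd3, mt-Nd4l and mt-Nd4. The deposited count of the copy was almost that of the gene itself in every library for some pairs. The ratio of Gm28661 to mt-Co2 counts was between 0.997 and 1.00, that of Gm28437 to mt-Co3 between 0.997 and 1.01, and that of Gm10222 to mt-Nd4l between 0.998 and 1.01. Gm10925 to mt-Atp6 was between 1.08 and 1.09 and Gm28438 to mt-Nd3 between 0.882 and 0.927. The shorter models held less, with Gm28439 to mt-Nd4 between 0.413 and 0.448 and Gm29216 to mt-Co1 between 0.0667 and 0.0768.

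Whether a fragment that fits both places was counted in both, divided or assigned at random is not given in the sources used here, and it was not tested. If it was divided, the levels of these genes are understated relative to genes without a copy. The share of each gene's 31-base words found in the copies was 100% for mt-Co2, 99.9% for mt-Co3, 99.5% for mt-Atp6, 98.9% for mt-Nd4l and 98.1% for mt-Nd3. It was 63.6% for mt-Co1, 62.8% for mt-Nd4, 13.5% for mt-Nd2, 12.8% for mt-Nd5 and 7.47% for mt-Atp8. It was 0% for mt-Cytb, mt-Nd1, mt-Nd6, both rRNAs and all 22 tRNAs. Only annotated transcripts were searched, and genomic sequence between the gene models was not. A share of 0%, or a low one as for mt-Atp8, therefore does not exclude a nuclear copy of the gene. The copies summed to 11638, 14056 and 13066 CPM across the Cre-labelled libraries and to 11837, 10879 and 11244 CPM in the GFP-labelled ones, or between 19.1% and 19.9% of the counts of copies and mitochondrial genes together.

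The copies had log2 differences close to those of their genes. The values were 0.28 for Gm28437 and mt-Co3, 0.32 for Gm28438 against 0.29 for mt-Nd3, and 0.18 for Gm10925 against 0.19 for mt-Atp6. They were 0.044 for Gm28661 against 0.045 for mt-Co2, 0.028 for Gm10222 against 0.031 for mt-Nd4l, and -0.034 for Gm28439 against 0.025 for mt-Nd4. For Gm29216, which matches a stretch of mt-Co1, the value was 0.33, against 0.21 for the whole gene. Since shared sequence can fix this likeness, a copy is not separate evidence for its gene. None of these copies passed in edgeR, and DESeq2 called Gm28437, Gm28438 and Gm29216 (adjusted p = 0.00558, 0.00375 and 0.00255). Of the members with unadjusted p under 0.05, mt-Cytb, both rRNAs and mt-Ty share no such word with a copy.

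**Figure D4:**
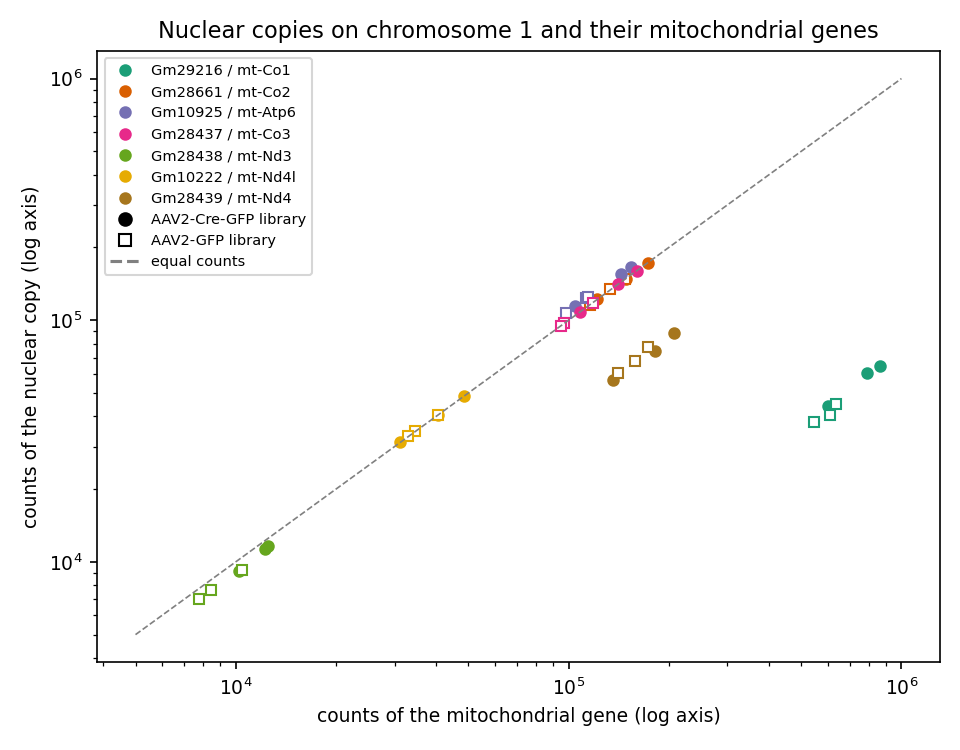
Counts of 7 gene models on chromosome 1 against counts of the mitochondrial gene each resembles, on log axes. Filled circles are Cre-labelled libraries, open squares are GFP-labelled libraries and the dashed line marks equal counts. Pairs such as Gm28661 and mt-Co2 lie on the line in all 6 libraries, and Gm29216 and mt-Co1 lie far under it.

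The tRNAs, which read the codons of the 13 mRNAs, are listed here as gene models of 59 to 75 bases. The labels give library inserts several times that length, so a fragment of that size over a tRNA gene also holds neighbouring sequence, and the counts are not counts of mature tRNAs. Their total was small, and the ratio of tRNA to mRNA counts overlapped between the groups, at 0.617, 0.537 and 0.506 tRNA counts per 100 mRNA counts in the Cre-labelled libraries and 0.566, 0.552 and 0.571 in the GFP-labelled ones. The genes the results turn on are shown with the anticodon in capitals. Of these, mt-Ty, mt-Tc and mt-Ts1 did not overlap between the groups on either scale, mt-Te had the highest level and mt-Tm the lowest log2 difference. mt-Th had the widest gap between Cre-labelled libraries among the genes shown, in proportion to its level.
mt-Ty, tyrosine (MT:5260-5326, minus strand): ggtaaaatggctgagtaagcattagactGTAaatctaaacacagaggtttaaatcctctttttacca
mt-Tc, cysteine (MT:5192-5257, minus strand): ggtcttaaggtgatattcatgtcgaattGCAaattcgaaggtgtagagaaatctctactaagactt
mt-Ts1, serine (MT:6870-6938, minus strand): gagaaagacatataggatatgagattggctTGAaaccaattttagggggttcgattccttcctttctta
mt-Te, glutamate (MT:14071-14139, minus strand): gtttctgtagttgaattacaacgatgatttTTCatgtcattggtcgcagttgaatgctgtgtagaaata
mt-Tm, methionine (MT:3845-3913, plus strand): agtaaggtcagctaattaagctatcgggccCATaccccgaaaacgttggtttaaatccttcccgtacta
mt-Th, histidine (MT:11546-11612, plus strand): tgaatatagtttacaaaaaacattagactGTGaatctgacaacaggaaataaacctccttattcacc

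The 8 light-strand tRNAs had a median log2 difference of 0.14, with 6 of 8 above 0, and the 14 heavy-strand tRNAs one of 0.025, with 9 of 14 above 0. The light-strand tRNAs summed to 181, 200.2 and 176 CPM across the Cre-labelled libraries, against 174, 153 and 159 CPM in the GFP-labelled ones, and did not overlap, though they did on TMM-scaled totals. The heavy-strand tRNAs summed to 89.97, 84.5 and 71.5 CPM across the Cre-labelled libraries, against 82.3, 76.1 and 80.8 CPM in the GFP-labelled ones, and did. The difference between the strands was not tested. The 4 tRNAs whose groups did not overlap in FPKM were all light-strand genes: mt-Ty, mt-Tc, mt-Ts1 and mt-Tn, for asparagine. They are 18.2% of the 22 tRNAs, where 14.1% of all genes tested were higher without overlap and 8.8% were lower. By edgeR 1 of the 22 tRNAs (4.55%) had an unadjusted p under 0.05, against 17.2% of all genes tested.

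mt-Ty stood at 196, 214 and 177 FPKM in the Cre-labelled libraries, against 146, 147 and 156 FPKM in the GFP-labelled ones. It lay higher in each Cre-labelled library than in any GFP-labelled one, with a log2 difference of 0.35 ± 0.12 (SE; edgeR adjusted p = 0.206). It lies 1 base from the start of mt-Co1, which is on the other strand. mt-Tc stood at 135, 139.8 and 116 FPKM in the Cre-labelled libraries, against 98.0, 98.2 and 113 FPKM in the GFP-labelled ones. The nearest libraries of the groups were close, and the log2 difference was 0.30 ± 0.15 (SE; edgeR adjusted p = 0.349). mt-Ts1 stood at 449, 515 and 460.5 FPKM in the Cre-labelled libraries, against 429, 390.4 and 392 FPKM in the GFP-labelled ones. Its log2 difference was 0.20 ± 0.087 (SE; edgeR adjusted p = 0.299). mt-Tn stood at 242, 225 and 215 FPKM in the Cre-labelled libraries, against 204, 185 and 212 FPKM in the GFP-labelled ones. It overlapped in TMM-scaled CPM, and its log2 difference was 0.14 ± 0.099 (SE; edgeR adjusted p = 0.509).

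Of the other light-strand tRNAs, mt-Te stood at 732, 852 and 743 FPKM in the Cre-labelled libraries, against 799, 634 and 619.5 FPKM in the GFP-labelled ones. GFP-labelled library 1 was high, as it was for mt-Nd6, which adjoins mt-Te on the same strand. mt-Ta, mt-Tq and mt-Tp, for alanine, glutamine and proline, overlapped, with log2 differences of 0.13, -0.070 and -0.033. The lowest of all 37 differences was that of mt-Tm, at 233, 246 and 228 FPKM in the Cre-labelled libraries and 258, 244 and 274 FPKM in the GFP-labelled ones. Its groups overlapped by 1 library of each, and its log2 difference was -0.17 ± 0.093 (SE; edgeR adjusted p = 0.401).

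Several heavy-strand tRNAs varied more within the Cre-labelled group than between the groups. mt-Th stood at 36.0, 22.1 and 14.5 FPKM in the Cre-labelled libraries, against 18.7, 16.6 and 19.9 FPKM in the GFP-labelled ones. mt-Ts2, for serine, stood at 29.4, 15.6 and 9.80 FPKM in the Cre-labelled libraries, against 15.9, 14.01 and 16.8 FPKM in the GFP-labelled ones. mt-Tl2, for leucine, stood at 34.99, 25.01 and 18.6 FPKM in the Cre-labelled libraries, against 26.9, 25.98 and 26.03 FPKM in the GFP-labelled ones. These 3 genes follow each other between mt-Nd4 and mt-Nd5, and in each the Cre-labelled libraries fell in order, around the narrow GFP-labelled range. Their log2 differences of 0.35, 0.19 and -0.045 had SEs of 0.36, 0.43 and 0.29. With Cre-labelled library 1 alone of its group, in the setting without the 3 libraries, they were at 0.92, 0.88 and 0.38. The same order, library 1 above 2 above 3, was found in 11 of 14 heavy-strand tRNAs, 2 of 8 light-strand tRNAs, both rRNAs and none of the 13 mRNAs. It is also the order of CT010467. Whether that level has a part in it was not tested.

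The remaining heavy-strand tRNAs overlapped between the groups. mt-Tl1, for leucine, had a log2 difference of 0.089 (95% interval -0.16 to 0.34), mt-Tk, for lysine, 0.095 (-0.42 to 0.61) and mt-Td, for aspartate, 0.048 (-0.50 to 0.60). mt-Tf, for phenylalanine, had 0.054 (-0.78 to 0.89), mt-Tw, for tryptophan, 0.038 (-0.41 to 0.48), mt-Tg, for glycine, 0.011 (-0.50 to 0.52) and mt-Tv, for valine, 0.0032 (-0.93 to 0.93). mt-Ti, for isoleucine, had -0.076 (-0.55 to 0.39), mt-Tt, for threonine, -0.054 (-0.45 to 0.35) and mt-Tr, for arginine, -0.054 (-0.53 to 0.42). Without the 3 libraries mt-Tt was at 0.10, and the median of all 22 tRNAs was 0.24, against 0.051 with all libraries. mt-Tv had the fewest counts, between 24 and 47 per library, and differences of the size seen for the rRNAs were not detectable for it at this depth.

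**Figure D5:**
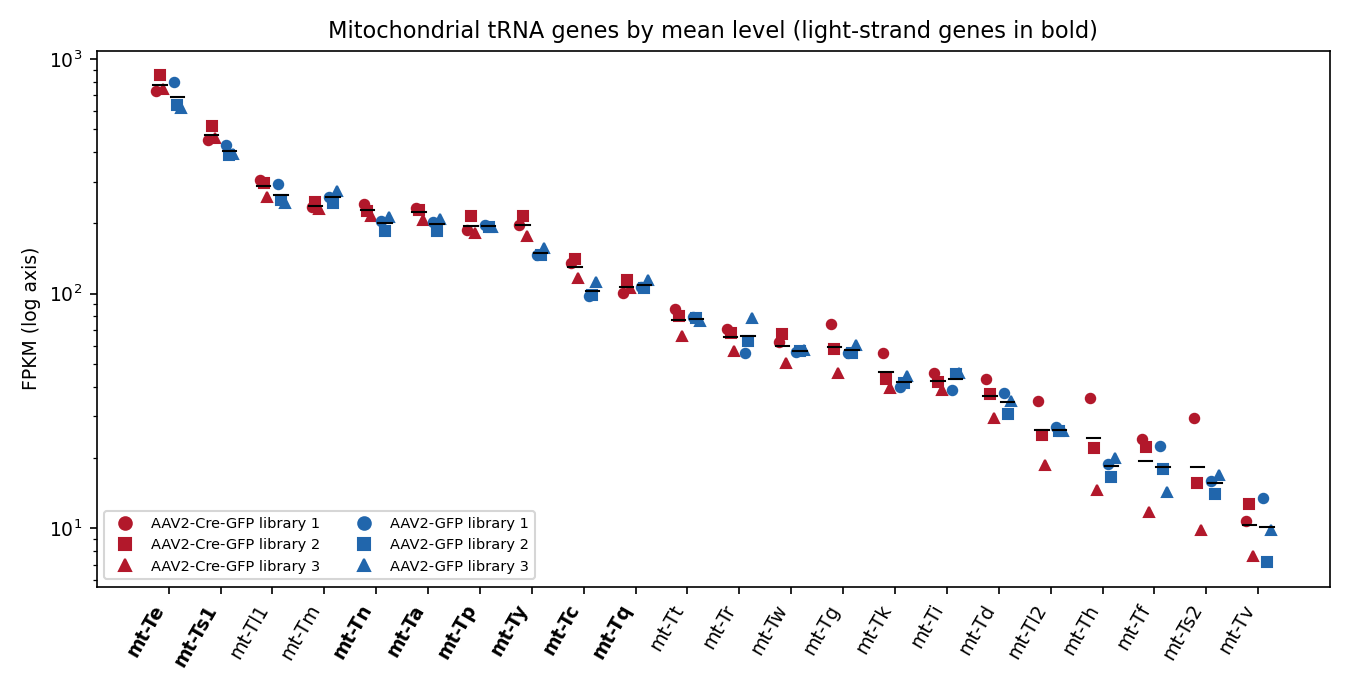
FPKM of the 22 tRNA genes in each library on a log axis, ordered by their mean, with light-strand genes in bold and black lines at group means (n = 3). The 8 light-strand genes all lie among the 11 highest, and the lowest genes show the widest spread among the Cre-labelled libraries.

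Levels of the tRNA genes differed by strand. Over the 6 libraries the mean ran between 730.1 FPKM for mt-Te and 10.2 FPKM for mt-Tv, a ratio of 71.2. All 8 light-strand genes averaged at least 100 FPKM and were among the 11 highest. Of the 14 heavy-strand genes, 12 were under 100 FPKM in every library, and the others were mt-Tl1 at 274 FPKM and mt-Tm at 247 FPKM. mt-Te exceeded mt-Ts1, and mt-Ts1 exceeded mt-Tl1, in 6 of 6 libraries, while mt-Tc exceeded mt-Tq in 3 of 6. Because strand use in counting is not given, antisense fragments of heavy-strand transcripts over these light-strand genes cannot be told apart from their own.

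Nuclear genes that act on mitochondrial transcripts were counted from lists. Beside these counts, 8.11% of all genes tested were higher and 9.11% lower at an edgeR unadjusted p under 0.05. DESeq2 called 514 genes higher and 808 lower of 16455. Of 21 tested genes of mitochondrial DNA transcription and replication, 0 passed in edgeR, with 1 higher and 1 lower at an unadjusted p under 0.05 and 0 DESeq2 calls. The median log2 difference was 0.080. Mterf1b, of the termination factor family, stood at 1.67 ± 0.391 FPKM in the Cre-labelled and 0.862 ± 0.215 FPKM in the GFP-labelled libraries (SD, n = 3 each; edgeR adjusted p = 0.202). Tk2, the mitochondrial thymidine kinase, stood at 9.46 ± 0.482 FPKM in the Cre-labelled and 10.4 ± 0.600 FPKM in the GFP-labelled ones (edgeR adjusted p = 0.275). Of 34 tested genes of RNA processing and decay, 0 passed in edgeR, with 5 higher and 2 lower at the unadjusted threshold, 0 DESeq2 calls and a median of 0.038. Tbrg4, which stabilises mitochondrial mRNAs, had a log2 difference of 0.20 ± 0.072, and Prorp, the nuclease subunit of mitochondrial RNase P, one of -0.41 ± 0.15 (SE; edgeR adjusted p = 0.218 for both).

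Of 23 tested genes of tRNA charging, 0 passed in edgeR, and DESeq2 called 1 higher and 1 lower. The median was 0.054. Lars2, which charges mitochondrial leucine tRNAs, stood at 414, 290.1 and 171 CPM across the Cre-labelled libraries, against 88.0, 93.8 and 82.4 CPM in the GFP-labelled ones (edgeR adjusted p = 0.0705). In Cre-labelled libraries 1 to 3 Lars2 fell in the same order as CT010467 and Rn7sk. Whether the levels of those RNAs have a part in the Lars2 values was not tested. The substrates of Lars2, mt-Tl1 and mt-Tl2, overlapped between the groups. Gars, which charges glycine tRNAs in the cytosol and in mitochondria, stood at 23.1 ± 0.536 FPKM in the Cre-labelled and 27.9 ± 0.609 FPKM in the GFP-labelled libraries (SD, n = 3 each; edgeR adjusted p = 0.0705). Of 16 translation factors 0 passed in edgeR or DESeq2, with 2 higher at the unadjusted threshold and a median of 0.015. These were Tufm, the elongation factor, with a log2 difference of 0.19 ± 0.076, and Mtif2, the initiation factor, with 0.20 ± 0.082 (SE; edgeR adjusted p = 0.258 and 0.262).

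Nuclear genes that mark the mass and dynamics of mitochondria had lower values in most cases. Of 20 tested, 14 had a log2 difference below 0, with a median of -0.063. Over all genes tested the median was -0.0058, with 49% above 0. At the unadjusted threshold 0 of the 20 were higher and 6 lower, where 8.11% of all genes were higher and 9.11% lower. In edgeR 0 of the 20 passed. DESeq2 called 5 of them, all lower, where it called 808 of 16455 genes lower. The fusion proteins Mfn2 and Opa1 had the smallest p. Mfn2 stood at 43.8 ± 0.853 FPKM in the Cre-labelled and 49.4 ± 1.38 FPKM in the GFP-labelled libraries, and Opa1 at 16.5 ± 0.465 FPKM in the Cre-labelled and 18.7 ± 0.384 FPKM in the GFP-labelled ones (SD, n = 3 each; edgeR adjusted p = 0.117 and 0.113). The list summed to 2964, 2859.9 and 2877 CPM across the Cre-labelled libraries and to 3038, 3003 and 3029 CPM in the GFP-labelled ones, without overlap and lower in the Cre-labelled ones.

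No cell type marker passed in edgeR, and their levels are given beside the mitochondrial ones. For the counts that follow, 8.11% of all genes tested were higher and 9.11% lower at an edgeR unadjusted p under 0.05. DESeq2 called 514 genes higher and 808 lower of 16455. The PVH was represented in every library, with Otp, a factor of PVH neurons, at 16.5, 17.2 and 20.8 FPKM in the Cre-labelled libraries and at 19.2, 30.3 and 33.3 FPKM in the GFP-labelled ones. The 8 PVH markers summed to 263, 289 and 571 CPM across the Cre-labelled libraries, against 332, 740.4 and 793 CPM in the GFP-labelled ones. All 8 had a log2 difference below 0, with a median of -0.67, 4 lower at an unadjusted p under 0.05 and 2 called lower by DESeq2. Crh, which encodes corticotropin-releasing hormone, had a log2 difference of -0.87 ± 0.19 and Otp one of -0.64 ± 0.19 (SE; edgeR adjusted p = 0.104 and 0.170). The 8 neuronal markers summed to 4255, 4494 and 4362 CPM across the Cre-labelled libraries, against 4888, 4998 and 4901 CPM in the GFP-labelled ones, with a median of -0.19, 5 lower at that threshold and 3 called lower by DESeq2. Map2 and Rbfox3 had the smallest p, at log2 differences of -0.39 ± 0.066 and -0.34 ± 0.050 (SE; edgeR adjusted p = 0.0705 for both).

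Other cell types are given in sums. The 6 astrocyte markers summed to 2932, 2636 and 2685 CPM across the Cre-labelled libraries and to 2457, 2546 and 2525 CPM in the GFP-labelled ones, all 6 above 0 with a median of 0.091, 1 higher at the unadjusted threshold and 1 called higher by DESeq2. Gja1 and Gfap had the smallest p among them (edgeR adjusted p = 0.186 and 0.381). The 5 ependymal markers summed to 170.2, 129 and 148 CPM across the Cre-labelled libraries and to 136, 105 and 105 CPM in the GFP-labelled ones, with 4 higher at the unadjusted threshold and 3 in DESeq2, led by Foxj1 and Ccdc153 (edgeR adjusted p = 0.0855 and 0.111). The fifth, Rsph1, had a log2 difference of -0.52 and stood at 35.4 FPKM in GFP-labelled library 1, the library with testis transcripts. The 5 red blood cell genes summed to 336, 262 and 351 CPM across the Cre-labelled libraries and to 196, 198 and 226 CPM in the GFP-labelled ones, with 4 higher at the unadjusted threshold and 4 in DESeq2, led by Hbb-bs and Hbb-bt (edgeR adjusted p = 0.0705 and 0.0758). The 6 endothelial markers summed to between 119.8 and 166 CPM in the Cre-labelled and between 118 and 139.6 CPM in the GFP-labelled libraries, with 3 of 6 below 0 and a median of 0.015. Ly6c1 and Pecam1 were higher at the unadjusted threshold (edgeR adjusted p = 0.149 and 0.285), and DESeq2 called 1 of the 6, Ly6c1. The 6 microglial and 6 oligodendrocyte markers had 0 genes at that threshold and 0 in DESeq2. Of the 6 microglial markers 4 were below 0, with a median of -0.042. P2ry12 and Cd68 had the smallest p among them and were above 0, at 0.23 and 0.28 (edgeR adjusted p = 0.371 and 0.405). No gene of these lists was at 0 in every library, and their part in the mitochondrial values was not tested.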

How the data were processed

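Poly(A) RNA of 6 PVH samples was sequenced as read pairs from stranded libraries with molecular identifiers, per the labels' protocols. Cutadapt, HISAT2, StringTie and the build mm9 are named per the submitters' processing notes, with versions, roles and use of the identifiers and strand not given in the sources used here. The table's mitochondrial coordinates are those of GRCm38, and they were not compared with mm9. The deposited counts are whole numbers per gene without normalization and the deposited FPKM values are scaled by the authors by gene length and library total.

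Genes were kept by filterByExpr (minimum count 10), and the counts of the 20865 left were compared in R 4.3.3 by the quasi-likelihood method of edgeR 4.0.16, with TMM factors, no covariates, two-sided, and Benjamini-Hochberg adjustment over all genes. Means and SDs are in FPKM; CPM uses deposited totals. Alternatives were DESeq2 1.42.0, median-ratio factors, totals without mitochondrial genes and CT010467, no filter, each library left out, a block for the replicate number, 3 libraries left out together, and limma 3.58.1 on log2(FPKM + 0.5) where the mean was 1 FPKM or more, with pseudocounts 0.1 and 1 and no filter. The fits were tested on simulated data. Every pair of libraries differed by more than sampling noise (chi-square per gene 11.4 or more). At the total counts of these libraries counting error is small except for tRNAs with few counts.

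Named genes are all mitochondrial genes, Ruvbl2, CT010467, Lars2, Rn7sk, nuclear copies with at least 20% shared 31-base words, and the 2 genes of smallest p in each list where none passed; the genes it takes from the oligodendrocyte list are not reported here. The members, lists and the organ genes were chosen with earlier results of these data known.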

Additional observations from a re-analysis of the deposited data

How the results depend on the processing

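The number of genes called at an adjusted p of 0.05 was 2 in edgeR with TMM, 1322 in DESeq2, 9 with median-ratio factors, 9 with totals that leave out the mitochondrial genes and CT010467, 1 without a filter, 15 in limma with a pseudocount of 0.1 and 1 in limma without a filter. It ran between 1 and 296 with 1 library left out (296 without Cre-labelled library 1) and was 1059 without the 3 libraries that hold transcripts of other organs. That last setting has Cre-labelled library 1 alone against GFP-labelled libraries 2 and 3, so its spread comes from these GFP-labelled libraries only. Its count of genes called therefore cannot show how many genes differ between the groups, and no conclusion is drawn from it. The median log2 difference in that setting was 0.64 for the rRNAs, 0.24 for the tRNAs and -0.043 for the mRNAs. With 1 library left out the medians ran between 0.011 and 0.13 for mRNAs, 0.23 and 0.47 for rRNAs, and -0.017 and 0.19 for tRNAs, the last without Cre-labelled library 3. Same-numbered libraries did not deviate together (correlations of -0.038, 0.029 and -0.0038), so they were not treated as pairs; with the replicate number as a block 3 genes passed, none of them mitochondrial, and mt-Tg turned to -0.011.

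Over 592 values of single mitochondrial genes under these alternatives, 44 changed sign, in 20 of the 37 genes, and 17 genes never did. mt-Nd6 was at 0.0093 in each limma fit. Without the 3 libraries mt-Nd1 was at -0.052, mt-Co2 at -0.043, mt-Atp8 at -0.0017, mt-Nd4 at -0.081, mt-Nd5 at -0.058, mt-Nd4l at -0.18, mt-Tl2 at 0.38 and mt-Tt at 0.10. With 1 library left out the range was -0.073 to 0.12 for mt-Nd1, -0.13 to 0.0077 for mt-Nd2, -0.038 to 0.13 for mt-Nd4, -0.014 to 0.13 for mt-Nd4l and -0.085 to 0.063 for mt-Nd6. Among tRNAs it was -0.066 to 0.20 for mt-Td, -0.11 to 0.33 for mt-Tf, -0.15 to 0.18 for mt-Tg, -0.026 to 0.62 for mt-Th, -0.040 to 0.21 for mt-Tk, -0.28 to 0.17 for mt-Tl2, -0.11 to 0.031 for mt-Tp, -0.16 to 0.099 for mt-Tr, -0.31 to 0.50 for mt-Ts2, -0.12 to 0.065 for mt-Tt, -0.19 to 0.25 for mt-Tv and -0.048 to 0.16 for mt-Tw. The cause of these changes was not tested. mt-Nd3, mt-Co3, mt-Cytb, mt-Co1, mt-Ty and both rRNAs stayed above 0 in every alternative run. The few counts of the lowest tRNAs limit what can be seen in them.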
